A study of Mus musculus with 22 samples.

Results

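Growth factors and receptor tyrosine kinases were described as a set of protein-coding genes picked by symbol: the FGF, PDGF, VEGF and BMP genes, the receptors of the EGF, insulin, KIT, MET, RET, GFRA and NTRK families, and a few of their ligands. *Pdgfra* was left out by that definition. The symbols matched 75 genes, and 70 of them had a row in at least 1 of the count tables, out of 30332 genes in all. Of the 70, 60 were in both tables, 2 (*Bmp8b* and *Fgf21*) were in the E14.5 table alone and 8 were in the P9 table alone. By role, 37 encode secreted ligands, 24 encode receptors or their co-receptors and 9 share a name only. The last group holds *Fgfr1op* and *Fgfr1op2*, named for fusions with FGFR1, the secreted receptor-like *Pdgfrl*, the protease gene *Bmp1*, the kinase gene *Bmp2k*, and *Fgf11* to *Fgf14*, which encode intracellular proteins that act on sodium channels.

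The libraries came from mouse pancreas. Each held RNA of 100 tdTomato+ cells, sorted after *Neurod1* Cre had switched on the Ai14 reporter. Mutants (*Isl1CKO*) were *Isl1* f/f; *Neurod1* Cre; Ai14, with 5 embryonic libraries at E14.5 and 6 postnatal libraries at P9. Controls were labelled WT, with 6 libraries at E14.5 and 5 at P9. The study gives the E14.5 controls as *Isl1* f/+; *Neurod1* Cre; Ai14 and the P9 controls only as reporter controls with Ai14. Sorting on tdTomato means that the cells of all 4 groups carried Cre and the reporter. Every cell in which *Neurod1* Cre had acted was in the gate, so the libraries mix endocrine cell types and progenitors. Only the P9 tissue was treated with collagenase before the trypsin step that both ages shared.

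Receptor tyrosine kinases span the membrane and pair up when a growth factor binds outside the cell, which lets them phosphorylate each other and start the RAS-ERK and PI3K cascades. BMPs act instead through serine/threonine kinase receptors and SMAD proteins. In the pancreas, FGF ligands of the mesenchyme support growth of the embryonic epithelium, and VEGF-A from islet cells is known for building the dense islet capillary bed.

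Libraries held 8477482 to 13580985 counts. At P9 the TMM scaling factors of edgeR ran from 0.736 to 0.833 in controls and from 1.09 to 1.40 in *Isl1CKO*, with no overlap. Scaled by library totals alone, the median gene was higher in *Isl1CKO* at P9 by 0.68 on the log2 scale, so all P9 differences below are relative to that median. The count of *Isl1* over all exons was lower in *Isl1CKO* at E14.5 (log2 fold change -0.48) and higher at P9 (1.08). It includes exons that the floxed allele keeps and so does not check the deletion. Summed markers of macrophages reached 1196, 1649 and 805 scaled counts in *Isl1CKO* E14.5 libraries 3, 4 and 5, against 466 to 754 in controls. Mesenchymal markers summed to 4222 and 9812 in control P9 libraries 3 and 4, against 217 to 746 in the other control P9 libraries. At P9 the summed markers of alpha cells were 233942 to 883593 in controls and 56206 to 87497 in *Isl1CKO*, those of beta cells were 5789880 to 8128870 and 1118020 to 2814460, and those of delta, PP and epsilon cells 83225 to 281702 and 2911 to 69623. The summed pan-endocrine markers were higher in *Isl1CKO* without overlap at both ages, at 141976 to 163503 and 351444 to 530848 at P9. The 8 genes of that list were split. At E14.5, 4 were above 0 on the log2 scale, with 2 called higher and 3 lower. At P9, 3 were above 0, with 3 called higher and 1 lower. Duct and trunk markers were 2079 to 2741 and 2192 to 6464 at P9. At E14.5 the summed alpha cell markers also did not overlap, at 139498 to 303180 and 83560 to 137210. Of the 6 genes of that list, 3 were above 0 at E14.5, with 1 called higher and 2 lower. At P9, 1 was above 0 and called higher, and 3 were called lower. Of the 4 delta, PP and epsilon genes, 1 was called higher at P9 and 2 lower. The part of these shifts in the results below was not tested. Fewer cells of a type and less RNA per cell cannot be told apart in such bulk libraries.

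At E14.5 the set was led by a single receptor, *Gfra3*, the co-receptor through which artemin reaches RET. Levels between genes are given as RPKM, here reads per kilobase of annotated exon and per depth of library, on a TMM scale over all 22 libraries. *Gfra3* stood at 60.3 ± 5.99 RPKM in E14.5 controls (SD, n = 6), followed by *Fgfr1op2* at 28.3, *Bmp1* at 8.26, *Fgfr1op* at 8.20 and *Pgf* at 8.16. In P9 controls the order was another: *Insrr*, an insulin receptor relative, led at 38.5 ± 6.94 RPKM (SD, n = 5), followed by *Fgfr1op2* at 28.1, *Vegfa* at 20.1, *Ret* at 16.2 and *Vegfb* at 16.0. The libraries of *Vegfa* (16.4 to 26.5 RPKM), *Ret* (13.4 to 19.9) and *Vegfb* (5.04 to 26.1) overlapped at P9. Most members were low. In E14.5 controls 37 of the 62 members in the table were under 1 RPKM, and in P9 controls 45 of 68 were. Members at 10 RPKM or more numbered 2 in E14.5 controls, 3 in E14.5 *Isl1CKO*, 9 in P9 controls and 6 in P9 *Isl1CKO*.

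**Figure D1:**
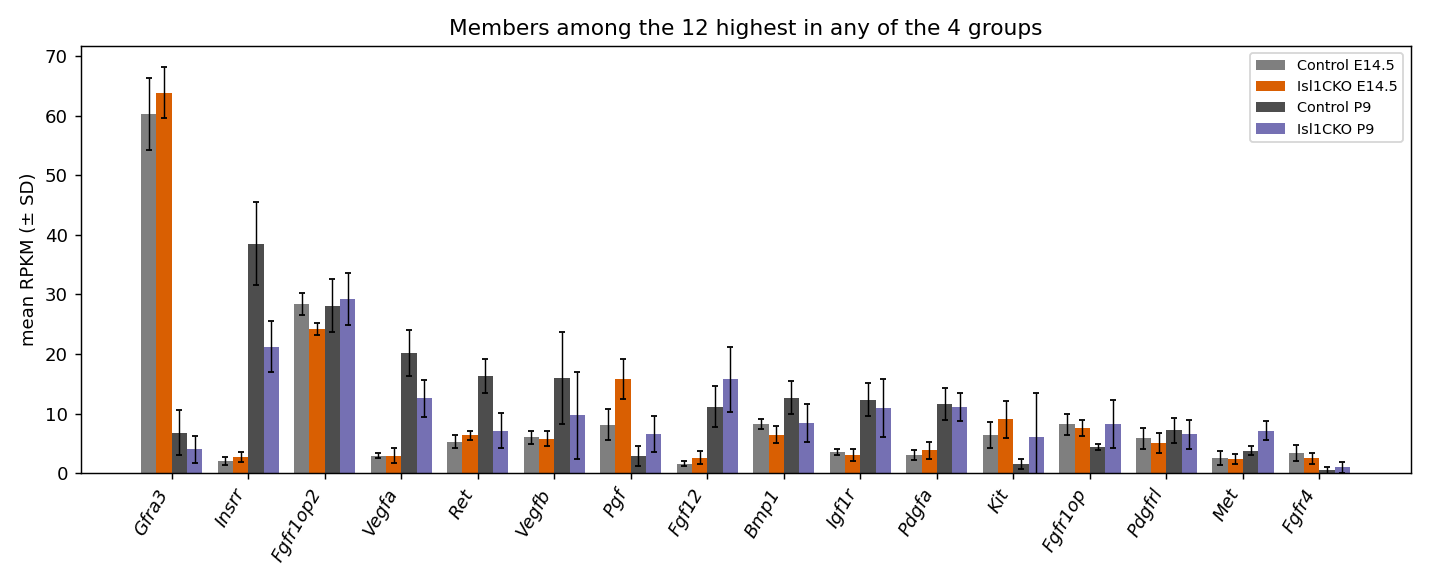
Mean RPKM (y axis, error bars SD over libraries) of the 16 members that ranked among the 12 highest in at least 1 of the 4 groups, shown for control and *Isl1CKO* at E14.5 and P9. *Gfra3* is tall at E14.5 only, *Insrr* and *Vegfa* are tall at P9, and *Fgfr1op2* is near the same height in all 4 groups.

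The loss of *Isl1* went with a call in 1 member at E14.5 and in 5 members at P9. At E14.5, 37 members had enough counts to test and *Pgf* alone passed an adjusted p under 0.05 (edgeR's quasi-likelihood test, adjusted over all 15960 genes tested), which is 2.7% of the tested members beside 1.43% of all genes (0.602% higher and 0.827% lower). At P9, 35 members were tested. *Bmp2* and *Met* were higher in *Isl1CKO* and *Insrr*, *Ret* and *Ntrk2* were lower, 14.3% of the tested members beside 4.81% of all 13964 genes tested (2.66% higher and 2.14% lower). Of the members tested at P9, *Bmp2* and *Erbb4* had no control library with 10 counts or more. They passed the filter on low counts only through *Isl1CKO*, where their means were higher. Among other members, control and *Isl1CKO* libraries at that level numbered 2 and 6 for *Vegfc*, 1 and 5 for *Btc*, and 1 and 4 for *Pdgfb*. They numbered 2 and 4 for *Fgfr4* and 3 and 6 for *Erbb3*. These members also had higher means in *Isl1CKO*, and the P9 median and count above 0 include them. The share of 14.3% includes the call of *Bmp2*. The unadjusted p was under 0.05 in 5 members at E14.5 and in 14 at P9. The median log2 fold change over tested members was -0.03 at E14.5, with 18 of 37 above 0, and 0.44 at P9, with 21 of 35 above 0. The medians over all genes were -0.0045 and 0.02. With library totals in place of TMM the P9 calls were 12 higher and 1 lower, 37.1% of the tested members beside 28.4% of all genes.

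**Figure D2:**
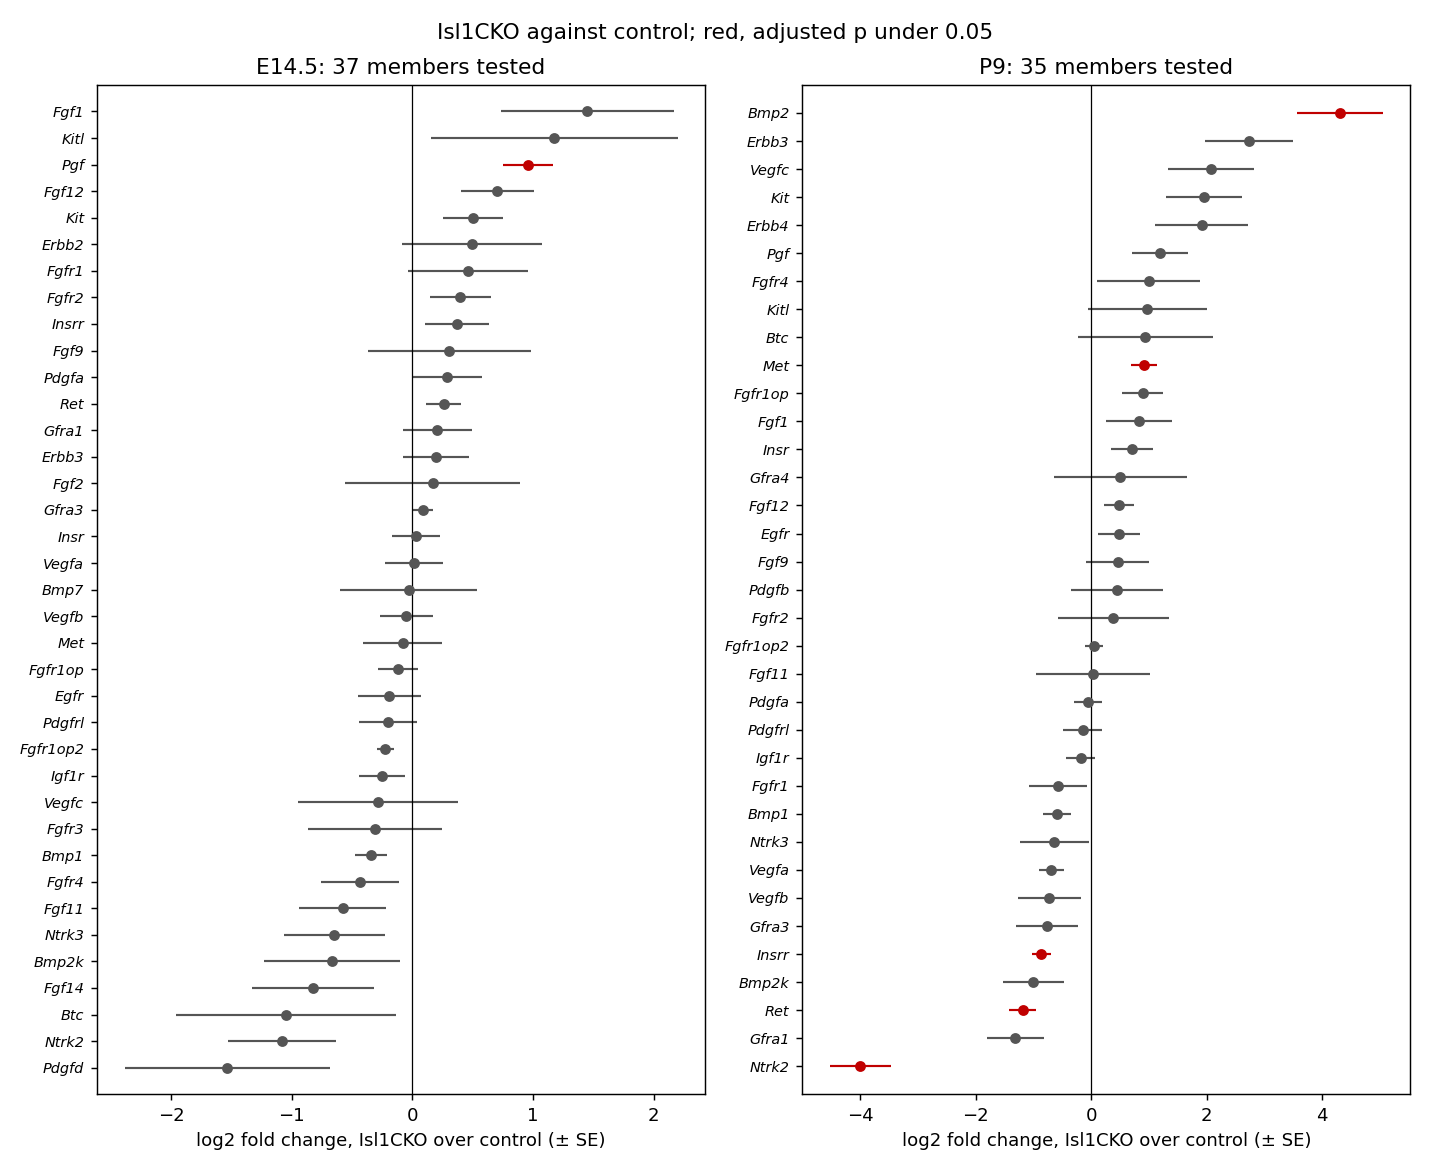
Log2 fold change of *Isl1CKO* over control with its standard error for the 37 members tested at E14.5 (left) and the 35 tested at P9 (right), in red where the adjusted p was under 0.05. *Pgf* is the red point at E14.5, and at P9 *Bmp2* and *Ntrk2* lie farthest from 0 on either side. The scales of the 2 panels differ.

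Among VEGF and PDGF ligands, *Pgf* was higher in *Isl1CKO* at E14.5 and *Vegfa* was level with control at that age. *Pgf* encodes placental growth factor, a ligand of the VEGF receptor FLT1, and lies on chromosome 12 of GRCm38 from 85166635 to 85177790. In E14.5 controls the scaled count of *Pgf* (counts scaled by TMM to the mean library of that age) had a lowest value of 284, a median of 319 and a highest of 577. In *Isl1CKO* the 5 libraries held 571, 619, 733, 934 and 869. The highest control lay just above the lowest *Isl1CKO* library, and the means were 383 ± 123 (SD, n = 6) and 745 ± 156 (SD, n = 5). On the log2 scale *Isl1CKO* differed from control by 0.96 (SE, the standard error, 0.21, adjusted p = 0.034, edgeR). Libraries 3, 4 and 5, which held the 3 highest *Pgf* values, are those with more macrophage markers. Without them the log2 fold change of *Pgf* was 0.64 with an adjusted p of 0.65. The part of macrophage RNA in the *Pgf* level was not tested. The call of *Pgf* was also lost, with adjusted p up to 0.10, when any of control libraries 2, 3, 4 and 6 or *Isl1CKO* libraries 2, 3, 4 and 5 was left out.

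At P9 *Pgf* was lower than at E14.5. The 5 controls held 80.3, 31.5, 132, 41.3 and 60.7 scaled counts, and the *Isl1CKO* libraries had a lowest value of 45.8, a median of 167 and a highest of 245. The ranges overlapped, and the log2 fold change of 1.19 (SE 0.49) had an adjusted p of 0.21. With library totals it was 1.78 with an adjusted p of 0.015. Between control groups *Pgf* fell from 8.16 ± 2.62 to 2.86 ± 1.63 RPKM, or -1.51 on the log2 scale (adjusted p = 0.0032). The effects of *Isl1* loss on *Pgf* at the 2 ages differed by 0.24 ± 0.50 (standard error, adjusted p = 0.89).

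*Vegfa*, the main signal for capillary growth, lies on chromosome 17 from 46016993 to 46032369. In E14.5 controls its scaled count had a lowest value of 173, a median of 197 and a highest of 265. The E14.5 *Isl1CKO* libraries held 352, 158, 194, 138 and 190. Library 1 stood above all others and the rest lay among or below the controls, and the log2 fold change was 0.02 (SE 0.24, adjusted p = 0.99). At P9 the controls held 624, 585, 954, 736 and 703, and the *Isl1CKO* libraries had a lowest value of 255, a median of 473 and a highest of 553. Every *Isl1CKO* library was below every control, as for 5.38% of all genes tested in either direction. The means were 721 ± 144 (SD, n = 5) and 447 ± 110 (SD, n = 6), and the log2 fold change of -0.69 (SE 0.21) had an adjusted p of 0.083. That p was 0.028 with DESeq2 and 0.86 with library totals. With totals that left out the 8 hormone genes the log2 fold change was -0.81, with an adjusted p of 0.038. Between controls *Vegfa* rose from 2.94 ± 0.46 RPKM at E14.5 to 20.1 ± 3.90 at P9, or 2.77 on the log2 scale (adjusted p = 3.5e-09).

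**Figure D3:**
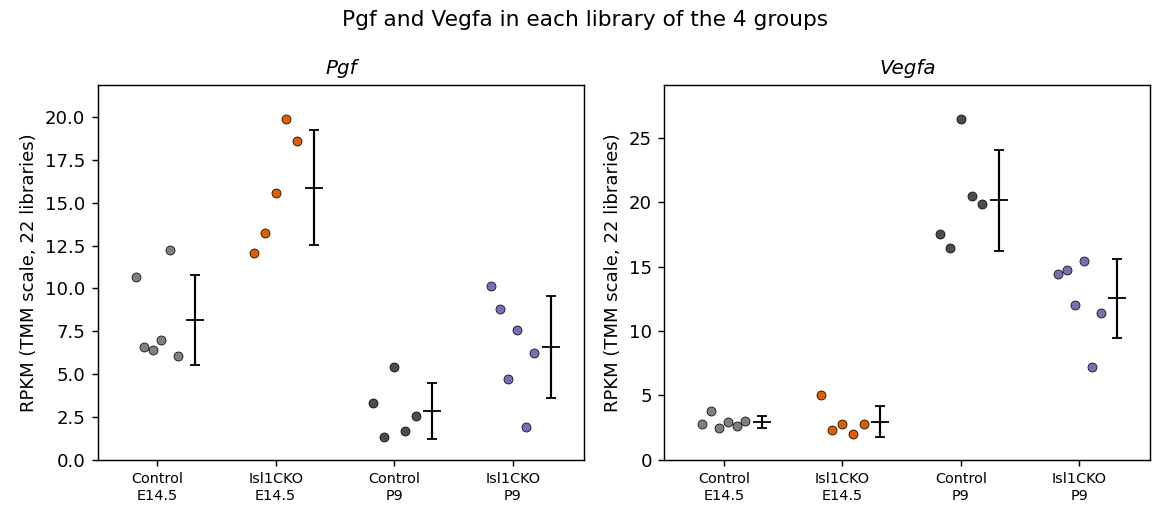
RPKM of *Pgf* (left) and *Vegfa* (right) in each library, with the mean and SD beside the points of each group. *Pgf* has its highest mean in E14.5 *Isl1CKO*, and *Vegfa* is higher in all P9 libraries than in all E14.5 libraries.

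The sequence just upstream of the *Vegfa* start is shown as the regulatory DNA of the gene that led the VEGF ligands at P9. RefSeq's promoter table for GRCm38.p6 gives the 250 bases before this start at chr17:46032378-46032627 on the minus strand, and none of them is in an annotated *Vegfa* exon. Capitals would mark a match on either strand to CTAATG or TAATTA (homeodomain motifs, the class of ISL1), CANNTG (E-box, the class of NEUROD1), ACGTG (core of the hypoxia response element) or TGACG (core of the cAMP response element).
Vegfa: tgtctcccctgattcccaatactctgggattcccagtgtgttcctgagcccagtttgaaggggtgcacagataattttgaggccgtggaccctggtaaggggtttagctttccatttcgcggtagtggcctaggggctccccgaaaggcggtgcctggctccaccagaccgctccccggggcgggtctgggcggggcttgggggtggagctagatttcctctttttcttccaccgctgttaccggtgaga
None of the 5 motifs was matched in this window. Of 32851 promoter windows of the same length, CTAATG was in 6.36%, TAATTA in 4.84%, CANNTG in 66.2%, ACGTG in 16.6% and TGACG in 17.8%.

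The receptors that *Pgf* and *Vegfa* bind were close to 0. *Flt1* stood at 0.02 RPKM in both E14.5 groups, at 0.11 in P9 controls and at 0.04 in P9 *Isl1CKO*. *Kdr*, the main VEGF-A receptor, stood at 0.02, 0.03, 0.08 and 0.07 RPKM. Neither gene had enough counts to test at either age. Both are defining genes of endothelial cells, and the endothelial marker *Cdh5* was also near 0 at P9, at 1.95 scaled counts in controls and 3.08 in *Isl1CKO*. The summed endothelial list was nonetheless higher in P9 *Isl1CKO*, at 356 to 1095 scaled counts against 185 to 307. *Cldn5*, a tight junction gene on that list, accounted for most of it, with means of 9.21 and 361 scaled counts. Of the 12 genes of that list 4 could be tested at P9, where 3 were above 0 and 1 was called higher. At E14.5 the list summed to 536 to 662 scaled counts in controls and 588 to 685 in *Isl1CKO*. There 2 of 4 tested genes were above 0 and none was called.

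The other VEGF and PDGF ligands had no call between genotypes with edgeR and TMM. *Vegfc*, a ligand of lymphatic vessels, averaged 23.9 scaled counts in P9 controls and 102 in *Isl1CKO* (log2 fold change 2.08, SE 0.74, adjusted p = 0.14), with overlapping libraries. That p was 0.034 with DESeq2 and 0.016 with library totals. *Vegfb* stood at 16.0 RPKM in P9 controls and 9.71 in *Isl1CKO* (adjusted p = 0.57). *Pdgfa*, a ligand of mesenchymal cells, rose with age in controls from 3.13 to 11.6 RPKM (log2 fold change 1.89, adjusted p = 8.6e-06) and hardly differed between genotypes at P9 (log2 fold change -0.06, SE 0.24). *Pdgfd* fell with age (-3.10, adjusted p = 0.049) and *Vegfb* rose (1.41, adjusted p = 0.017). The fall of *Pdgfd* did not pass without control P9 libraries 3 and 4 (-2.81, adjusted p = 0.18) or in 11 of 22 fits without 1 library, and the rise of *Vegfb* did not pass with library totals (0.23, adjusted p = 0.67).

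In the insulin receptor family the genotype comparison called *Insrr* only. *Insrr* encodes a receptor that is activated by alkaline pH and binds neither insulin nor IGF1. It lies on chromosome 3 from 87796951 to 87816101. In P9 controls its scaled counts were 1573, 1964, 1516, 1819 and 2302. In P9 *Isl1CKO* the lowest was 818, the median 963 and the highest 1356. The groups did not overlap, with means of 1835 ± 318 (SD, n = 5) and 1009 ± 200.5 (SD, n = 6). On the log2 scale *Isl1CKO* differed from control by -0.86 (SE 0.17, adjusted p = 0.0064, edgeR). With library totals it was -0.19 with an adjusted p of 0.46. At E14.5 *Insrr* was low, with 192 ± 58.6 and 248 ± 79.2 scaled counts (log2 fold change 0.37, adjusted p = 0.66). The effects at the 2 ages differed by -1.23 (SE 0.30, adjusted p = 0.032). This call was lost in 9 of 22 fits that left out 1 library, with adjusted p up to 0.077, among them the fits without *Isl1CKO* E14.5 libraries 1, 3 or 5. It was also lost with library totals, where the difference was -0.57 (adjusted p = 0.22).

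*Insrr* also had the largest rise with age of any tested member. Controls went from 2.08 ± 0.64 RPKM (range 1.48 to 2.81) at E14.5 to 38.5 ± 6.94 (range 31.5 to 48.8) at P9, or 4.21 on the log2 scale (adjusted p = 5e-12). *Igf1r*, the IGF receptor, rose from 3.58 to 12.4 RPKM (1.79, adjusted p = 4.4e-06) and did not pass between genotypes at P9 (-0.18, SE 0.25). *Insr*, the insulin receptor itself, stood at 2.82 and 3.01 RPKM in the control groups, and at P9 its log2 fold change in *Isl1CKO* was 0.70 (SE 0.36, adjusted p = 0.35). *Igf1* had at most 0.20 RPKM in any group.

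Of the RET and neurotrophin receptors, *Ret* and *Ntrk2* were lower in *Isl1CKO* at P9, and 5 of the 6 tested at that age had a negative log2 fold change. *Ret*, the signalling receptor for GDNF family ligands, lies on chromosome 6 from 118151745 to 118197718. In P9 controls its scaled counts were 963, 753, 990, 762 and 1113. In P9 *Isl1CKO* the lowest was 296, the median 354 and the highest 731. Library 1 of *Isl1CKO* reached nearly to the lowest control, the others held 378 or less, and the groups did not overlap. The means were 916 ± 156 (SD, n = 5) and 403 ± 164 (SD, n = 6), or -1.19 on the log2 scale (SE 0.24, adjusted p = 0.0084, edgeR), which with library totals was -0.55 with an adjusted p of 0.10. At E14.5 *Ret* stood at 579 ± 113 and 694 ± 89.6 scaled counts (0.26, SE 0.15, adjusted p = 0.54). The effects at the 2 ages differed by -1.44 (SE 0.29, adjusted p = 0.0078). Without *Isl1CKO* E14.5 libraries 3, 4 and 5 this adjusted p was 0.070. Between controls *Ret* rose from 5.30 to 16.2 RPKM (1.62, adjusted p = 2.1e-06), and with library totals that rise was 0.44 with an adjusted p of 0.067.

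The GFRA co-receptors choose the ligand to which RET responds. *Gfra1*, which binds GDNF, stood at 99.8 ± 19.1 scaled counts in P9 controls and 40.0 ± 25.3 in *Isl1CKO* (log2 fold change -1.32, SE 0.49, adjusted p = 0.16), with overlapping libraries. DESeq2 called it at P9 (-1.32, adjusted p = 0.020) and for the difference between ages (-1.54, adjusted p = 0.040). *Gfra3* stood at 1946 ± 195 and 2064 ± 139 scaled counts at E14.5, and the log2 fold change of 0.08 had a SE of 0.09 and an adjusted p of 0.79. It fell with age in controls from 60.3 (range 50.6 to 67.0) to 6.82 RPKM (range 1.35 to 11.2), or -3.14 on the log2 scale (adjusted p = 5.8e-07). At P9 it stood at 6.82 and 4.03 RPKM in control and *Isl1CKO* (adjusted p = 0.54). *Gfra4* stayed at 1.11 RPKM or less and *Gfra2* at 0.20 or less.

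*Ntrk2* encodes TRKB, the receptor for BDNF, and lies on chromosome 13 from 58806569 to 59133970. It had the largest fall of any member at P9. Controls held 392, 569, 470, 474 and 725 scaled counts. *Isl1CKO* libraries had a lowest value of 6.33, a median of 26.4 and a highest of 79.6. No *Isl1CKO* library came near a control, and the means were 526 ± 128 (SD, n = 5) and 32.6 ± 27.8 (SD, n = 6). On the log2 scale *Isl1CKO* differed from control by -4.00 (SE 0.53, adjusted p = 0.00038, edgeR), and it was -3.38 with library totals. At E14.5 *Ntrk2* had a lowest value of 105, a median of 177 and a highest of 345 in controls, and 159, 92.1, 164, 51.4 and 32.4 in *Isl1CKO*. These groups overlapped (log2 fold change -1.08, SE 0.45, adjusted p = 0.35). The effects at the 2 ages differed by -2.91 (SE 0.71, adjusted p = 0.030). This call was lost in 5 of 22 fits without 1 library, those without control E14.5 library 2 or 5, *Isl1CKO* E14.5 library 1 or 3, or control P9 library 5, with adjusted p up to 0.070, and it was lost without control P9 libraries 3 and 4 (adjusted p = 0.054). In controls *Ntrk2* rose from 0.68 ± 0.35 RPKM at E14.5 to 3.27 ± 0.82 at P9 (2.27, adjusted p = 0.0012), which with library totals was 1.09 with an adjusted p of 0.054.

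The window upstream of *Ntrk2*, the member with the largest fall at P9, is given from the same RefSeq table. Its 250 bases at chr13:58806319-58806568 on the plus strand end at the base before the annotated gene. Capitals mark CATCTG, a match to CANNTG that starts at -138 from the start site, and CTAATG at -104. The matches do not overlap, and the other 3 motifs had none.
Ntrk2: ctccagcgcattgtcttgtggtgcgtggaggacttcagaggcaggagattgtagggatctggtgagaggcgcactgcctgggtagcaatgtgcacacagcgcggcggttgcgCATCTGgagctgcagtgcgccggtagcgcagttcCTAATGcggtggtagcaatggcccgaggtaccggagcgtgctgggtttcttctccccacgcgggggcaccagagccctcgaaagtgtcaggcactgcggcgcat
The RefSeq promoter table holds 8 of the 13 members with full values. The windows of *Pgf* and *Met* lie wholly or partly in annotated exons of these genes. Windows free of exons were also scanned for *Fgf12*, which had no genotype call with edgeR, and for *Bmp2k*. A window of *Fgf12* held CTAATG at -248 and TGACG at -145. The other *Fgf12* window and that of *Bmp2k* held no match to the motifs.

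The neurotrophin receptor gene *Ntrk3* stood at 0.13 and 0.08 RPKM at P9 (log2 fold change -0.64, adjusted p = 0.67), and it rose with age in controls (1.56, adjusted p = 0.016), which with library totals was 0.39 with an adjusted p of 0.50.

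**Figure D4:**
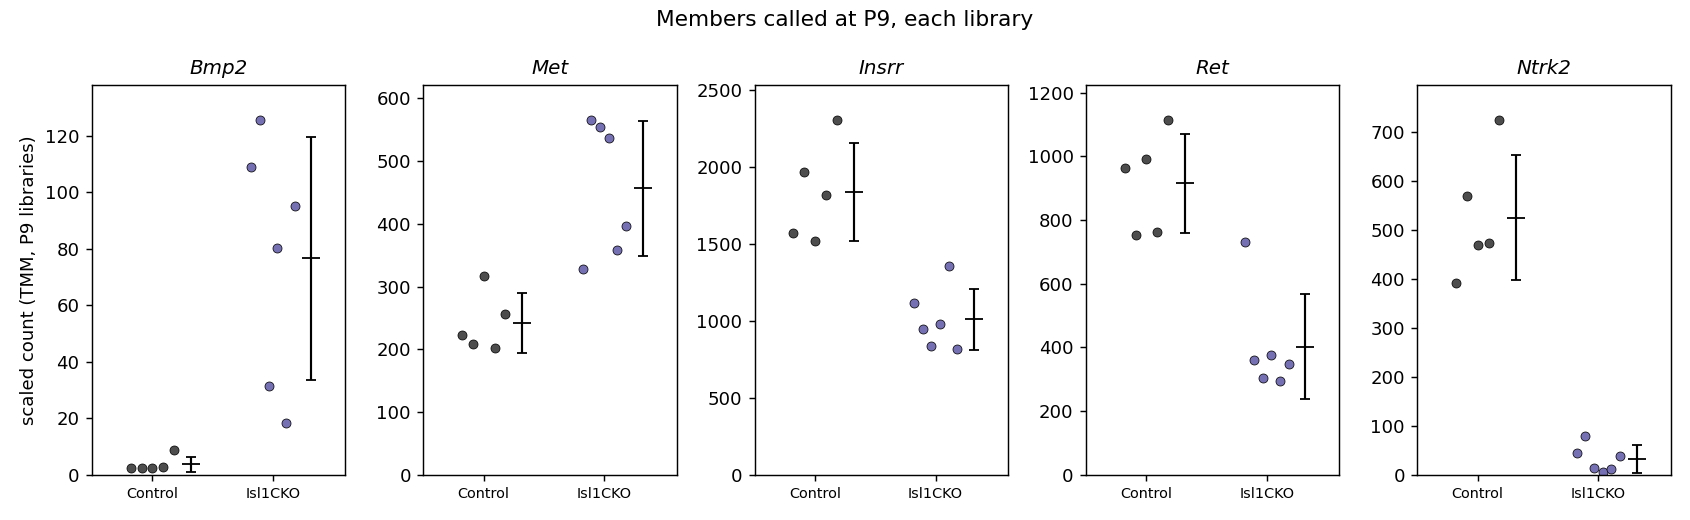
Scaled counts in each P9 library (points) with the mean and SD of 5 control and 6 *Isl1CKO* libraries, for the 5 members with an adjusted p under 0.05 at P9. In all 5 genes the points of the groups do not overlap, with *Bmp2* and *Met* higher and *Insrr*, *Ret* and *Ntrk2* lower in *Isl1CKO*. *Bmp2* passed the filter on low counts only through *Isl1CKO*.

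*Met*, *Erbb3* and *Kit* all had higher means in P9 *Isl1CKO*, and only *Met* passed the test. *Met*, the hepatocyte growth factor receptor, lies on chromosome 6 from 17463800 to 17573980. P9 controls held 223, 209, 317, 202 and 257 scaled counts, and *Isl1CKO* had a lowest value of 328, a median of 467 and a highest of 565. The nearest libraries, control 3 and *Isl1CKO* 1, were 317 and 328. The means were 242 ± 47.2 (SD, n = 5) and 456 ± 107 (SD, n = 6), or 0.92 on the log2 scale (SE 0.23, adjusted p = 0.032, edgeR). With totals that left out the 8 hormone genes it was 0.80, with an adjusted p of 0.052. The call was lost, with adjusted p up to 0.082, without control library 1, 2, 4 or 5 or *Isl1CKO* library 2, 3 or 4, and it was lost without control libraries 3 and 4 together, where the log2 fold change was 0.98 (adjusted p = 0.096). At E14.5 *Met* stood at 315 ± 142 and 298 ± 101 scaled counts (-0.08, adjusted p = 0.96). Its ligand gene *Hgf* was at 0.10 RPKM or less in every group.

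*Erbb3*, a neuregulin receptor that signals with ERBB2, had few counts in P9 controls: 40.7, 0, 10.5, 18.6 and 23.9 scaled counts. In P9 *Isl1CKO* the lowest was 50.6, the median 122 and the highest 212, so the groups did not overlap. On the log2 scale *Isl1CKO* differed from control by 2.73 (SE 0.76, adjusted p = 0.052), and the adjusted p was 0.00096 with DESeq2 and fell below 0.05 without control library 1 or 2. In controls *Erbb3* fell with age from 1.66 ± 0.50 to 0.37 ± 0.31 RPKM (-2.14, adjusted p = 0.0058). *Erbb4* stood at 8.50 ± 1.99 scaled counts in P9 controls, and in *Isl1CKO* libraries 5 and 6 held 78.3 and 77.5 while the other 4 held 6.11 to 12.2. *Egfr* stood at 0.98 and 1.37 RPKM at P9 (adjusted p = 0.57), and the EGF family ligand *Btc* at 0.39 and 0.75 (adjusted p = 0.76).

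*Kit*, the stem cell factor receptor, stood in E14.5 controls at 6.40 ± 2.24 RPKM and in E14.5 *Isl1CKO* at 9.04 ± 3.07 (log2 fold change 0.50, SE 0.25, adjusted p = 0.47). It fell with age in controls to 1.57 ± 0.78 RPKM (-2.02, adjusted p = 0.0067). P9 controls held 171, 22.7, 156, 121 and 114 scaled counts, and P9 *Isl1CKO* had a lowest value of 86.2, a median of 250.3 and a highest of 1542. The highest was library 5, far above the next at 384, and the log2 fold change of 1.96 (SE 0.66) had an adjusted p of 0.11. That p was 0.037 with DESeq2, 0.012 with library totals and 0.022 in a model over both ages. *Kitl*, its ligand, was at 0.71 RPKM or less.

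No FGF family member had a call between genotypes at either age with edgeR, among 12 tested at E14.5 and 9 at P9. The unadjusted p was under 0.05 in 2 members at E14.5 and 1 at P9, and DESeq2 called *Fgfr1op2* at E14.5 and 0 at P9. At P9, 8 of the 9 log2 fold changes were above 0, with a median of 0.46, beside 7218 of 13964 over all genes. Of the 8, 4 belonged to genes that share a name only, 2 to secreted ligands and 2 to receptors. The FGF receptors moved with age in controls. *Fgfr4* fell from 3.40 ± 1.35 to 0.48 ± 0.60 RPKM (-2.80, adjusted p = 0.0046) and *Fgfr3* from 0.67 to 0.07 RPKM (-3.22, adjusted p = 0.0046), while *Fgfr1* rose from 0.42 to 1.78 RPKM (2.09, adjusted p = 0.0043), which with library totals was 0.93 with an adjusted p of 0.14. *Fgfr2*, the receptor of the epithelium for mesenchymal FGFs, stood at 1.33 and 0.39 RPKM (-1.79, adjusted p = 0.067). Of the secreted FGFs, *Fgf9* was the highest, at 1.11 RPKM in E14.5 controls and 2.05 in P9 controls, with log2 fold changes between genotypes of 0.31 and 0.46. *Fgf1* rose with age from 0.12 to 1.13 RPKM (3.27, adjusted p = 0.00066). The other secreted FGFs stayed at 0.51 RPKM or less. *Fgf21* had 14 counts over the E14.5 controls and 0 over the 5 *Isl1CKO* libraries, which allows up to 3 counts in the group.

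*Fgf12*, which encodes an intracellular protein rather than a secreted factor, was the FGF gene with the largest level at P9. It rose in controls from 1.62 ± 0.44 RPKM (range 0.91 to 2.02) to 11.2 ± 3.43 (range 5.87 to 15.0), or 2.79 on the log2 scale (adjusted p = 2.1e-07). Its genotype log2 fold changes were 0.70 (SE 0.30) at E14.5 and 0.49 (SE 0.26) at P9, with adjusted p of 0.38 and 0.36. *Fgf11* and *Fgf14* stood at 1.63 and 1.26 RPKM in E14.5 controls and at 0.85 and 0.25 in P9 controls. *Fgfr1op*, a gene of the centrosome, fell with age (-0.88, adjusted p = 0.019) and *Fgfr1op2* did not pass (-0.01, SE 0.12). *Fgfr1op2* was at 28.3 ± 1.85 and 24.2 ± 0.95 RPKM in control and *Isl1CKO* at E14.5 without overlap of their libraries, as for 2.49% of all genes tested, and its log2 fold change of -0.22 (SE 0.07) had an adjusted p of 0.21.

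Among BMP genes, *Bmp2* was the only member called between genotypes. *Bmp2* encodes a secreted ligand of the BMP receptors and lies on chromosome 2 from 133552159 to 133562885. P9 controls held 2, 2, 2, 2 and 8 counts, or 2.33, 2.52, 2.32, 2.66 and 8.68 scaled. In P9 *Isl1CKO* the scaled counts had a lowest value of 18.3, a median of 87.7 and a highest of 126. Every *Isl1CKO* library was above every control, and the means were 3.70 ± 2.78 (SD, n = 5) and 76.7 ± 43.0 (SD, n = 6). On the log2 scale *Isl1CKO* differed from control by 4.31 (SE 0.74, adjusted p = 0.0030, edgeR). No control library reached 10 counts, so *Bmp2* passed the filter on low counts only through *Isl1CKO*. At E14.5 it was at 12.1 scaled counts or less in every library and was not tested. The effects at the 2 ages differed by 3.25 (SE 1.12, adjusted p = 0.14). *Bmp2* remained low per length, at 2.60 RPKM in P9 *Isl1CKO*.

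The other BMP ligands were sparse. *Bmp7* stood at 1.08 and 1.06 RPKM in the E14.5 groups (log2 fold change -0.03, adjusted p = 0.99), and the remaining 8 stayed at 0.45 RPKM or less in every group in which they had a row. *Bmp1*, which encodes a procollagen protease, was the highest by far, at 8.26 and 6.50 RPKM at E14.5 (adjusted p = 0.32) and at 12.7 and 8.47 at P9 (adjusted p = 0.21). *Bmp2k* rose with age in controls from 0.40 ± 0.26 to 1.71 ± 1.10 RPKM (2.10, adjusted p = 0.0060), a call lost with library totals (0.93, adjusted p = 0.16) and without control P9 libraries 3 and 4 (1.60, adjusted p = 0.070). Of its exon length 14% is shared with *Paqr3* on the other strand, and without strand their reads cannot be told apart.

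Across the whole set, the change with age in controls was broader than the change with genotype. A joint fit over 22 libraries tested 46 of the members with a row in both tables. Of these, 21 passed between P9 and E14.5 controls, 13 higher and 8 lower at P9. That is 45.7% beside 31% of all 17265 genes tested (15.8% higher and 15.2% lower). The median log2 fold change was 0.66 for members and -0.04 for all genes. With library totals the median of all genes was -1.21 and the calls were 6 higher and 18 lower, 52.2% of the tested members beside 61.6% of all genes, so the members' share was then the smaller. The 5 largest rises among called members with a mean of 50 scaled counts or more were *Insrr*, *Fgf12*, *Vegfa*, *Ntrk2* and *Bmp2k*, and the 5 largest falls were *Gfra3*, *Fgfr4*, *Erbb3*, *Kit* and *Pgf*. Age, the collagenase step and the separate count tables cannot be told apart in this comparison. Groups did not overlap in 16 members, beside 20.9% of all genes. The difference of the genotype effect between ages passed in 3 of 46 members, *Insrr*, *Ntrk2* and *Ret*, which is 6.52% beside 2.08% of all genes (1.23% more positive and 0.851% more negative). All 3 were more negative at P9, and without *Isl1CKO* E14.5 libraries 3, 4 and 5 none of them passed (adjusted p from 0.070 to 0.30), with differences of -1.06, -3.23 and -1.53 on the log2 scale in place of -1.23, -2.91 and -1.44. With library totals 10 members passed, 8 more positive and 2 more negative, where the median of all genes was 0.68. That is 21.7% of the members beside 18.4% of all genes. These fits share the control libraries with those above.

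**Figure D5:**
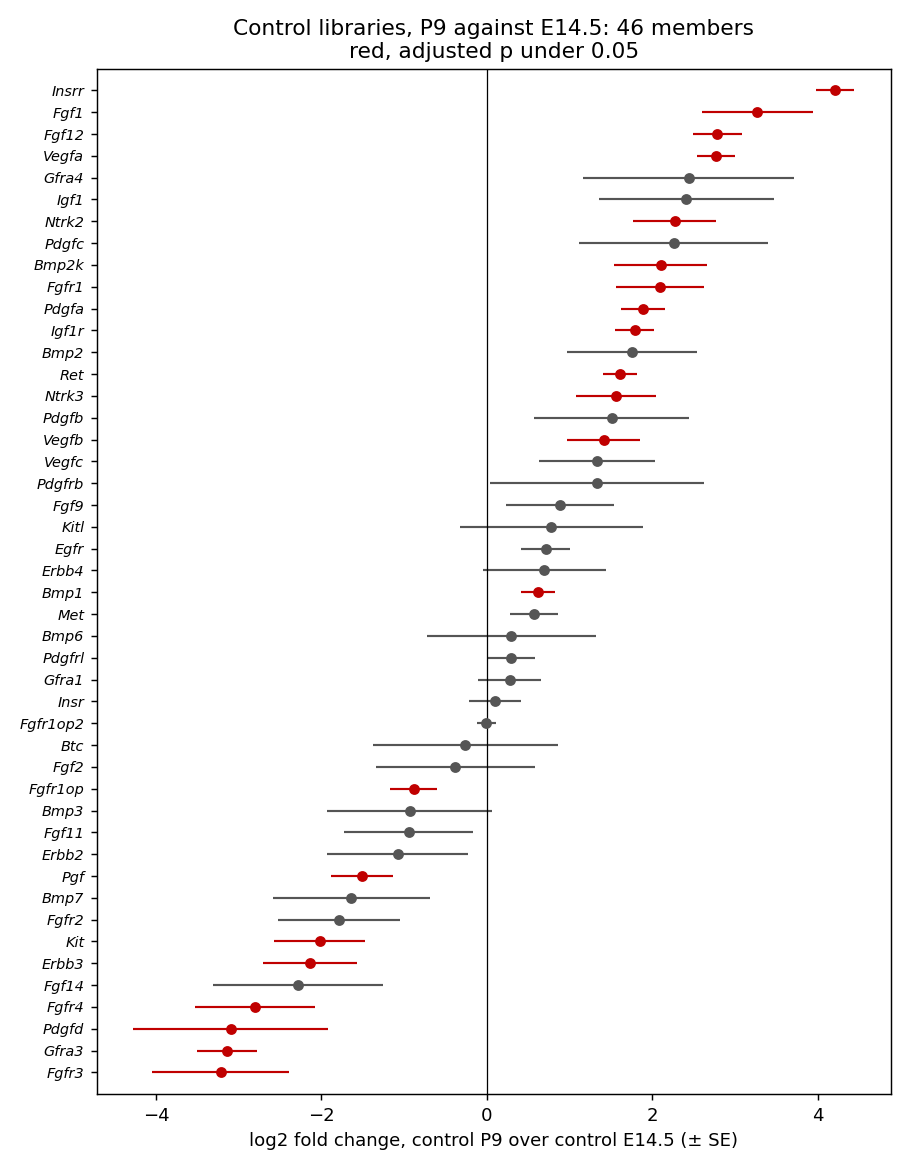
Log2 fold change of P9 over E14.5 controls with its SE for the 46 members tested, in red where the adjusted p was under 0.05. *Insrr* has the largest rise, and *Fgfr3*, *Gfra3* and *Pdgfd* lie at the bottom.

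Genes that work with these ligands and receptors were counted in 6 lists. The counts of calls below stand beside 4.81% of all genes tested at P9 and 1.43% at E14.5. At P9 the list of ERK feedback inhibitors and targets, which are known to be switched on when receptor tyrosine kinases signal, had a median log2 fold change of 1.64 beside 0.02 for all genes. All 12 of its 16 genes that could be tested were above 0, beside 7218 of 13964 over all genes, and 2 passed, both higher. Whether any of the 12 passed the filter on low counts only through *Isl1CKO* was not tested. *Dusp6*, an ERK phosphatase, rose from 133 ± 53.5 to 1241 ± 437 scaled counts (log2 fold change 3.22, adjusted p = 3.3e-05). *Spry2*, an inhibitor of RAS-ERK signalling, rose from 176 ± 80.3 to 593 ± 264 (1.76, adjusted p = 0.0097). At E14.5 none of 14 tested passed with edgeR, 4 had an unadjusted p under 0.05, DESeq2 called 3, and the median was 0.15.

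Among other ligands of these receptors at P9, 1 of 8 tested passed: *Nrg1*, a ligand of ERBB3 and ERBB4, at 19.9 ± 10.4 and 163 ± 88.8 scaled counts (3.03, adjusted p = 0.0044). Of co-receptors and binding proteins 4 of 15 passed at P9, where 4.81% of all genes did. The heparan sulphate carriers *Gpc4* (1.31, adjusted p = 0.0036) and *Gpc6* (3.57, adjusted p = 0.013) and the FGF co-receptor gene *Kl* (2.22, adjusted p = 0.014) rose, and *Igfbp5* fell (-2.71, adjusted p = 0.039). At E14.5, 2 of 20 passed, *Gpc4* (0.98, adjusted p = 0.026) and the IGF-binding protein gene *Igfbp4* (1.33, adjusted p = 0.039), both higher. Of the adaptors 2 of 15 passed at P9. *Grb10*, which restrains insulin and IGF receptors, rose (1.07, adjusted p = 0.010) and *Shc1*, which links receptors to RAS, fell (-0.97, adjusted p = 0.028). With library totals the fall of *Shc1* was -0.34 with an adjusted p of 0.25. Of the BMP pathway list 1 of 18 passed at P9, near the share of all genes. It was the BMP target *Id4*, which rose (1.56, adjusted p = 0.0055). No gene passed with edgeR in 5 other sets of tests. In the adaptor list at E14.5, 2 of 18 had an unadjusted p under 0.05 and DESeq2 called 0. In the BMP list at E14.5 these were 3 of 16 and 2, and in the other ligands at E14.5 they were 2 of 10 and 0. In the list of other receptor tyrosine kinases they were 3 of 18 and 0 at E14.5, and 1 of 13 and 1 at P9. Without control P9 libraries 3 and 4, the P9 calls over the 6 lists were 5 in place of 10: *Dusp6*, *Gpc4*, *Kl*, *Nrg1* and *Spry2*.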

How the data were processed

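The authors trimmed reads with cutadapt 1.18, mapped them with STAR 2.7.0c to GRCm38 (GRCm38.p6 in the submitters' processing notes, annotation M8), filtered rRNA with Bowtie 1.2.2 and deposited raw read counts per gene, from Rsubread without multi-mapping reads, in a table per age. Gene IDs were matched to GENCODE M21. That covered 27078 of 27124 rows at E14.5 and 27456 of 27504 at P9.

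Each age was fitted separately with edgeR 4.0.16 in R 4.3.3 (TMM, filterByExpr, glmQLFit and glmQLFTest, two-sided, Benjamini-Hochberg over all genes tested, called under 0.05). The age contrast and the genotype-by-age term came from a 4-group model over 22 libraries. The fits were tested on simulated data. DESeq2 1.42.0 was an alternative. Values per library are TMM-scaled counts or RPKM. The depth of 8477482 to 13580985 counts per library limits genes with few counts. The libraries are labelled biological replicates, and no 2 held alike counts. Members named are *Pgf*, *Vegfa*, those called between genotypes and the 5 largest rises and falls with age. Members and lists were chosen with earlier results of these data known.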

Additional observations from a re-analysis of the deposited data

Results flagged for a closer look

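In 52 groups of 5 or 6 libraries, over the 13 members with full values, 5 had a library standing apart by Dixon's test at 95%, where chance gives about 2.6. *Vegfa* was 352 scaled counts in *Isl1CKO* E14.5 library 1, above all others of that age. *Bmp2* was 8.68 in control P9 library 5. *Ret* was 731 in *Isl1CKO* P9 library 1, the closest to the controls. *Fgf12* (1351) and *Kit* (1542) both stood apart in *Isl1CKO* P9 library 5, which with library 6 also held the high *Erbb4* values. Their causes were not tested.

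The effect of *Isl1* loss differed between ages, by the interaction term in edgeR, in 3 members. The difference of the log2 fold changes, P9 minus E14.5, was -1.23 for *Insrr*, -2.91 for *Ntrk2* and -1.44 for *Ret*. With library totals that of *Insrr* was -0.57 and did not pass (adjusted p = 0.22).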

How the results depend on the processing

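With library totals *Bmp1*, called higher in P9 than in E14.5 controls, was called lower (-0.57 on the log2 scale), and the age differences of *Gfra1* (-0.91), *Insr* (-1.08) and *Pdgfrl* (-0.88), above 0 and not called with TMM, were called lower. No other called value of a member changed direction. Members called at E14.5 numbered 2 with DESeq2 (*Pgf* and *Fgfr1op2*), 0 in a model over both ages and 0 without *Isl1CKO* E14.5 libraries 3, 4 and 5. At P9 they numbered 10 with DESeq2, 13 with library totals and 11 in the model over both ages, against 5. The shares of all genes called were then 6.28%, 28.4% and 10.5%, against 4.81%. With totals that left out the 8 hormone genes, 5 members were called at P9, beside 5.39% of all genes. *Vegfa* then gained a call and *Met* lost its call. In that setting the rise of *Bmp1* with age in controls also lost its call (0.51, adjusted p = 0.058, edgeR). Members whose effect differed between ages numbered 5 with DESeq2, 10 with library totals and 0 without *Isl1CKO* E14.5 libraries 3, 4 and 5, against 3. Leaving out 1 library at a time gave 0 to 1 members at E14.5, 4 to 5 at P9, 1 to 4 for the difference between ages and 19 to 22 for age in controls. Genes called over the 6 pathway lists at E14.5 (2) were 7 with DESeq2, 1 with no filter on low counts, 0 in the model over both ages, 0 without *Isl1CKO* E14.5 libraries 3, 4 and 5, and 0 to 2 without 1 library. At P9 (10) they were 17 with DESeq2, 36 with library totals, 18 in the model over both ages, 5 without control P9 libraries 3 and 4 (an alternative added after seeing the data) and 8 to 11 without 1 library. For these shifts the cause was not tested, except that library totals moved the median of all genes and that fewer libraries entered the fits that left some out.

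Same-numbered control and *Isl1CKO* libraries did not deviate together. Their correlations ran from -0.051 to 0.038 at E14.5 and from -0.026 to 0.054 at P9, so the numbers were not taken to pair the libraries. With the replicate number as a block the members called were 3 at P9 and 1 for the difference between ages, and the pathway genes called were 1 at E14.5 and 6 at P9. The block ended the calls of *Pgf* at E14.5 (adjusted p = 0.094, edgeR), of *Bmp2* (0.056) and *Met* (0.11) at P9, of *Insrr* (0.077) and *Ntrk2* (0.062) for the difference between ages and of *Bmp1* (0.051) with age. *Kit* at E14.5 (log2 fold change 0.60, adjusted p = 0.043) and *Fgf14* with age (-4.02, adjusted p = 0.0042) gained calls. Of 5 control libraries at each age with a partner, 1 at E14.5 and 2 at P9 correlated best with their own number.

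Depth limits members with few counts: *Bmp2*, *Erbb3* and *Vegfc* in P9 controls rest on 16, 80 and 100 counts over 5 libraries.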
